A study of Schizosaccharomyces pombe with 6 samples.

Results

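The proteasome subunit genes of fission yeast, *Schizosaccharomyces pombe*, were taken as the genes whose symbol is rpn, rpt, pre or pup followed only by digits. This rule found 30 genes among 5113 annotated protein-coding genes, of which 11 encode the core (pre and pup) and 19 the cap (rpn and rpt). The rule used names and no measured value. The series measured whole cells by CAGE, a method that reads short tags from the capped 5′ end of each RNA, with 3 libraries per group. The wild type was h- ade6-M210 leu1-32 ura4-D18, and the double mutant had the same mating type and auxotrophic markers plus fft2::kan and fft3::hph. Each genotype was 1 strain. Fft2 and Fft3 are paralogous chromatin remodelling ATPases of the SNF2 family, and the series asks whether start sites move in their absence. All cells were harvested in mid-log growth in YES medium at 30 °C.

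The proteasome degrades proteins that carry ubiquitin chains. Its core is a barrel in which rings of beta subunits, some of them proteolytic, are stacked between rings of alpha subunits that gate the entrance. The cap sits on the end of the barrel: its base holds a ring of ATPases that unfold the substrate, and its lid removes the ubiquitin chain. In budding yeast, *Saccharomyces cerevisiae*, the transcription factor Rpn4 switches on these genes together.

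A gene's promoter value was the sum of the same-strand tag clusters that lie from 500 bp upstream of its annotated start to 100 bp downstream, or as far as the start codon if it lies beyond. It is given in TPM, tags that the authors scaled to a common library total. One tag marks one 5′ end whatever the length of the RNA, so RNA length does not enter when levels are compared between genes. Whether tags of each gene are caught and placed equally well was not tested. Values come from whole cultures, where more cells with an RNA and more RNA per cell cannot be told apart. Values for 2 of the 30 genes were not tested. The lid subunit Rpn5 has a pair of genes, rpn501 and rpn502. The window of rpn501 held no cluster, and that of rpn502 had a mean of 0.281 TPM, below the 1 TPM needed for testing. The other 28 genes, all 11 of the core and 17 of the cap, had at least 15.8 TPM in every library. The pair is shown here because its sequences are near copies, by the reference letters before their start codons (assembly ASM294v3, RefSeq, from 150 bp before the annotated start through the ATG that ends each line). Capitals mark the 3 positions at which the pair differs.
rpn501: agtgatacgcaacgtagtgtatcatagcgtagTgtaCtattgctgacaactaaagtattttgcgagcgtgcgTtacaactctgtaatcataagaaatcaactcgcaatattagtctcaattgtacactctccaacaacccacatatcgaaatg
rpn502: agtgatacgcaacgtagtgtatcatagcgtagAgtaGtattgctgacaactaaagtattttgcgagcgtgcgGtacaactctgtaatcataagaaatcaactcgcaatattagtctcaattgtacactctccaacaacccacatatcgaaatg

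The rpn501 stretch is chrI:1266119-1266271 on the plus strand and the rpn502 stretch chrI:4910873-4911025 on the minus strand. The 77 bases before the start codon and the 1024 bases from it on were identical, and the 300 bases from 250 upstream to 50 downstream differed at 12. A tag that begins in the identical stretch matches both places. How tags with several matches were treated is not given in the sources used here, so nothing can be said of the level of Rpn5 RNA.

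Libraries held between 12681899 and 23242897 tags, of which 91.2% to 92.3% lay in the 108138 deposited clusters. Tags inside the coding part of fft2 went from 4.402 to 6.28 TPM in the wild-type libraries to 0.0862 to 0.172 in the mutant ones, and those inside fft3 from 1.498 to 3.34 TPM to 0.215 to 0.554, as the genotype labels state. Wild-type replicate 2, the shallowest library, was the highest wild-type library in 10 of 11 genes listed for nitrogen starvation and mating. It had 189.9 TPM of mei2, 93.8 of mfm1 and 85.1 of isp5, against at most 9.61, 6.22 and 2.53 TPM in the other wild-type libraries. These 3 were named after their values were seen. Of the list 8 genes were tested, and 1 was higher and 2 lower in the mutant, where 24.3% and 9.11% of all genes were. Without that library 5 of the 8 were higher and 2 lower, where 1175 and 470 of 5610 genes were. The summed level of that list ran from 56.6 to 477 TPM in wild-type cells and from 97.8 to 156 TPM in the mutant. Counts without that library are given below.

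Promoter tags of the core rose in most genes. Of 11 core genes, 8 were higher in the mutant and none lower (limma on log2(TPM + 0.5), Benjamini-Hochberg adjusted p under 0.05 over 5610 genes), where 24.3% of all genes tested and 16.9% of the coding genes in the same fit were higher and 9.11% of all genes were lower. The median log2 change of the core was 0.50, against 0.13 over all genes. Of 17 cap genes, 6 were higher and none lower, with a median of 0.30. The core genes summed to 1838 ± 91.5 TPM (SD, n = 3) in wild-type cells and 2787 ± 102 TPM in the mutant, a ratio of 1.52. The cap genes summed to 1805 ± 76.0 and 2301 ± 112 TPM, a ratio of 1.28. Every mutant library lay above every wild-type library in 16 of the 28 subunit genes, and in 33.4% of all genes tested. The 14 called genes are among these 16, but the call rests on the same values, so this adds nothing to it. The labels speak of duplicate cultures as well as of triplicates, so p-values measure the spread between libraries, which may share a culture.

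**Figure D1:**
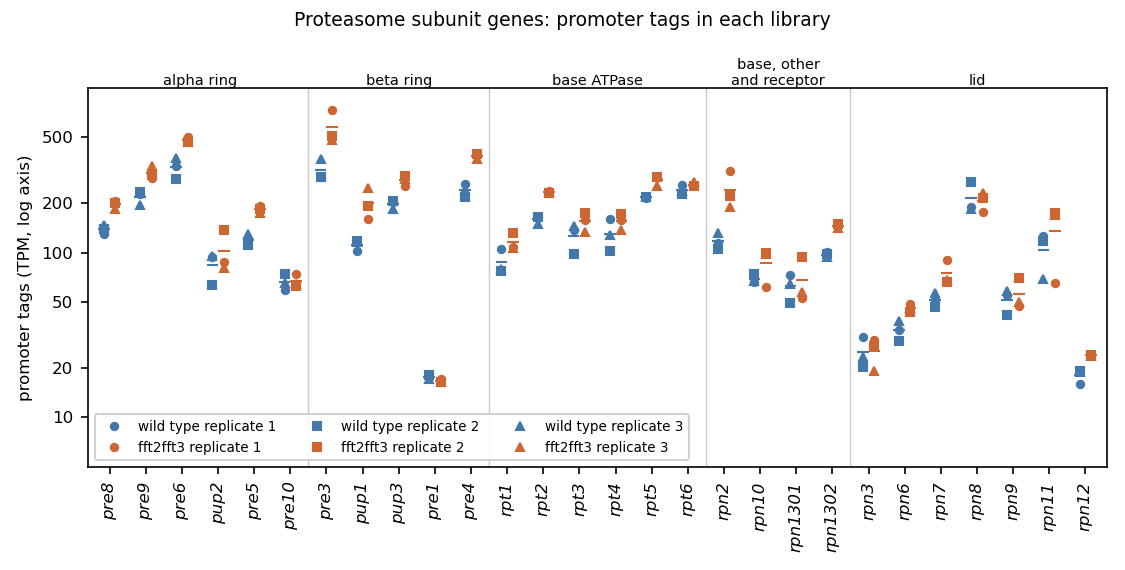
Promoter tags (TPM, log axis) of the 28 tested subunit genes, one point per library with replicates as symbols and short lines at the group means, grouped by place in the complex. The mutant points lie above all wild-type points in 16 genes, 8 of the core and 8 of the cap, and below them in pre1 only. Over the 5610 genes tested, 1876 had the mutant above and 808 had it below.

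In the alpha ring, which gates the barrel, 4 of 6 genes were higher, where 24.3% of all genes were. With TMM scaling 1 of the 6 was (16.7%), near the 18.5% of all genes. The gene pre6 had the highest wild-type level of the whole set, with 334, 279 and 375 TPM in wild-type replicates 1 to 3 and 503, 470.0 and 468 TPM in mutant replicates 1 to 3. For pre5 the wild-type libraries had 120.0, 111 and 129 TPM and the mutant libraries 191, 184 and 175 TPM. These are rises of 0.55 ± 0.13 (SE) and 0.61 ± 0.11 on the log2 scale (limma adjusted p = 0.014 and 0.0039), and the groups did not overlap in either gene. The gene pre8 went from 130.2, 138 and 147 TPM to 207, 199 and 184 TPM. The gene pre9 went from 226, 234 and 193 TPM to 282, 297 and 337 TPM. Their log2 changes were close, 0.50 ± 0.11 and 0.49 ± 0.12, with limma adjusted p of 0.0092 and 0.020. That of pre9 missed the threshold without wild-type replicate 3, mutant replicate 2 or mutant replicate 3 (adjusted p from 0.054 to 0.078). The pair that missed the threshold did so in different ways. The gene pup2 was spread within each group, with 94.0, 63.2 and 95.2 TPM against 87.6, 138 and 80.4 TPM. By contrast pre10 was tight and level, with 59.4, 73.6 and 65.1 TPM against 73.8, 62.7 and 64.1 TPM, a log2 change of 0.02 ± 0.13 (limma adjusted p = 0.93).

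In the beta ring, 4 of 5 genes were higher, where 24.3% of all genes were. With TMM scaling 3 of the 5 were, where 18.5% of all genes were. The median log2 change of the ring was 0.69, the highest of the 5 places in the complex. The gene pre3 encodes the subunit with caspase-like activity, as known from budding yeast. It had 287, 289 and 370 TPM in wild-type cells and 737, 509.6 and 485 TPM in the mutant, the highest mutant mean of the set. Mutant replicate 1 stood above the other mutant libraries, and the lowest mutant value was still 1.31 times the highest wild-type one. The gene pup1 encodes the subunit with trypsin-like activity. It had 103, 117 and 116 TPM against 159, 191 and 247 TPM. Here replicate 3 was the highest mutant library. The log2 changes of pre3 and pup1 were 0.86 ± 0.19 and 0.81 ± 0.17 (limma adjusted p = 0.010 and 0.0081). The other beta genes of the set encode subunits without a catalytic site. Among them pre4 went from 262, 219 and 239 TPM to 389.9, 398 and 368 TPM, a log2 change of 0.69 ± 0.11 (limma adjusted p = 0.0023). The gene pup3 went from 203, 207 and 183 TPM to 253, 290.3 and 279 TPM, a log2 change of 0.47 ± 0.11 (limma adjusted p = 0.013). Its call ended without mutant replicate 2 or 3 (limma adjusted p = 0.060 and 0.053).

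The beta-ring gene pre1 stood apart from the other core genes in level. It had 17.6, 18.1 and 17.2 TPM in wild-type cells and 17.0, 16.3 and 16.4 TPM in the mutant, the lowest level of any core gene. Every mutant library was below every wild-type library, which also held for 808 of the 5610 genes tested. The log2 change of -0.09 ± 0.12 did not pass (limma adjusted p = 0.62). The next lowest core gene, pre10, had 3.75 and 4.04 times as many tags in the 2 groups. A barrel holds as many copies of Pre1 as of each other subunit. Whether pre1 tags are caught as fully as those of other genes was not tested. The promoters of the core genes in this set spanned 18.7-fold in wild-type cells and 34.9-fold in the mutant. Core genes with other names are outside these spans, among them the alpha-ring gene scl1, with means of 725 TPM in wild-type cells and 1009 TPM in the mutant.

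Among the ATPases of the base, which form the unfolding ring, 2 of 6 genes were higher (33.3%), where 24.3% of all genes were. With TMM scaling 1 of the 6 was, and nothing is read from these counts. The gene rpt2 had 165, 164 and 149.6 TPM in wild-type cells and 236, 229 and 234 TPM in the mutant, a log2 change of 0.55 ± 0.10 (limma adjusted p = 0.0045). The gene rpt5 had 214, 218 and 219 TPM against 287, 289 and 253 TPM, a change of 0.35 ± 0.10 (limma adjusted p = 0.035). Leaving out any 1 of the 6 libraries ended the call of rpt5, with adjusted p from 0.0505 to 0.135. The gene rpt6 had the highest mean of the cap, with 258, 228 and 238 TPM in wild-type cells and 256, 253 and 267 TPM in the mutant. Its groups overlapped and its log2 change, 0.10 ± 0.10, was below the 0.13 of all genes. The genes rpt1, rpt3 and rpt4 had log2 changes from 0.27 to 0.41 with limma adjusted p from 0.079 to 0.27.

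Of the other base subunit and the ubiquitin receptors, 2 of 4 genes were higher, where 24.3% of all genes were. With TMM scaling 2 of the 4 were too, where 18.5% of all genes were. The gene rpn2 encodes the large scaffold that docks receptors, and had the largest change of all 28 genes. Its wild-type libraries had 114, 105 and 132 TPM and its mutant libraries 312, 220.2 and 189 TPM. The mutant libraries differed among themselves by 1.65-fold and all lay above the wild type, a log2 change of 1.009 ± 0.19 (limma adjusted p = 0.0055). The receptor Rpn13 has a pair of genes. For rpn1302 the values were 100.3, 97.5 and 93.8 TPM against 147, 149 and 139.97 TPM, a log2 change of 0.58 ± 0.10 (limma adjusted p = 0.0034). For rpn1301 they were 73.2, 49.3 and 64.4 TPM against 52.6, 93.5 and 57.9 TPM, a change of 0.10 ± 0.24 that did not pass. The log2 ratio of rpn1302 to rpn1301 was 0.66 in wild-type cells and 1.14 in the mutant, and this difference of 0.48 did not pass (exact two-sided permutation p = 0.2, where 0.1 is the smallest possible). The receptor gene rpn10 had 66.4, 73.7 and 67.3 TPM against 61.5, 99.6 and 98.4 TPM and did not pass (limma adjusted p = 0.29).

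In the lid, which removes ubiquitin chains, 2 of the 7 genes tested were higher (28.6%), near the share of all genes. The gene rpn6, whose product clamps lid, base and core together, had 34.0, 29.2 and 38.5 TPM in wild-type cells and 48.8, 43.3 and 45.8 TPM in the mutant. The gene rpn7 had 51.5, 46.9 and 57.0 TPM against 90.5, 66.7 and 67.9 TPM. Their log2 changes were 0.44 ± 0.14 and 0.52 ± 0.15 (limma adjusted p = 0.043 and 0.035). Both calls were close to the threshold, and that of rpn6 held only when the library left out was wild-type replicate 3. That of rpn7 ended without wild-type replicate 1, wild-type replicate 2, mutant replicate 1 or mutant replicate 3. The gene rpn12 had the lowest mean of the cap, with 15.8, 19.2 and 18.9 TPM against 23.9, 23.9 and 23.4 TPM, and its groups did not overlap although it missed the threshold (log2 change 0.40 ± 0.13, limma adjusted p = 0.051). The next lowest, rpn3, had 30.7, 20.3 and 23.1 TPM against 29.3, 27.0 and 19.1 TPM, which did not pass (limma adjusted p = 0.95). The gene of the deubiquitinase itself, rpn11, was the most variable member within groups and was singled out after its values were seen. It had 125, 118 and 68.6 TPM in wild-type cells and 65.4, 173 and 168 TPM in the mutant, so that 1 library of each group was far below the rest. The genes rpn8 and rpn9 had log2 changes of -0.03 and 0.10 and did not pass.

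**Figure D2:**
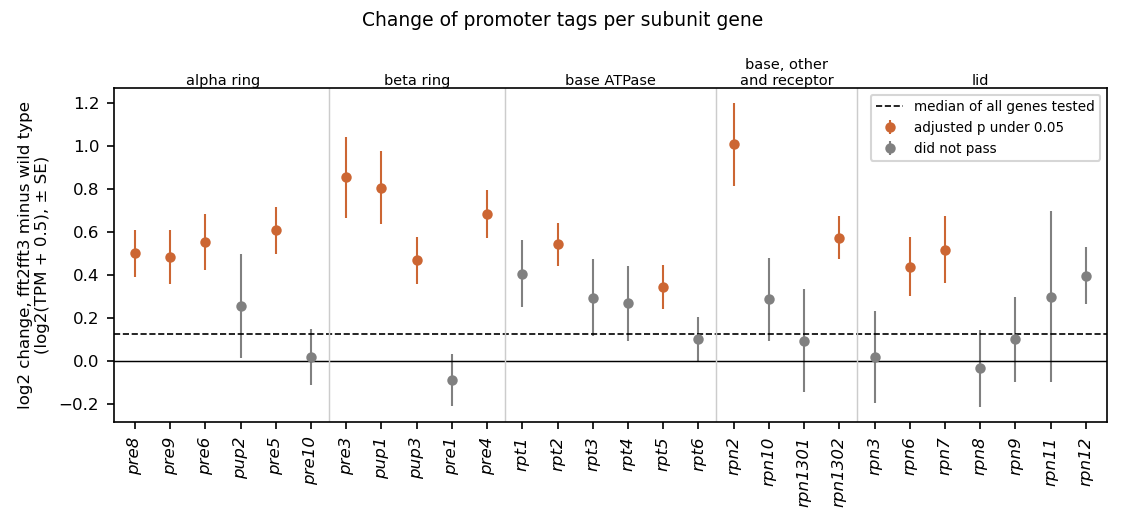
Log2 change of promoter tags (mutant minus wild type, on log2(TPM + 0.5), bars ± SE from limma) for each tested subunit gene. Orange points passed the adjusted threshold of 0.05, and the dashed line is the median of all genes tested, 0.13. The 8 core points and 6 cap points that passed all lie above it, led by rpn2 at 1.009.

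How many genes passed rested on the scaling of the libraries, which moved the median log2 change of all genes from 0.13 to -0.02. With TMM scaling 4 core genes and 3 cap genes were higher, where 18.5% of all genes were. With median-of-ratios scaling 5 core and 3 cap genes were higher, where 18.6% of all genes were. No subunit gene was lower under either. With TMM scaling 1 alpha-ring, 3 beta-ring, 1 base ATPase and 2 other base or receptor genes were higher, and none of the lid, which also had none with median-of-ratios scaling, edgeR, DESeq2 or the replicate block. Taken relative to the median of all genes, the median change was 0.374 for the core and 0.173 for the cap as deposited and 0.368 and 0.168 with TMM. The genes that stayed past the threshold in all 19 other settings were pre3, pre4, pre5, pup1, rpn2, rpn1302 and rpt2. Without wild-type replicate 2, the library high in the nitrogen starvation list, 8 core and 3 cap genes were higher. Without mutant replicate 3, 6 core and 3 cap genes were. A cap share of 3 in 17, or 17.6%, is near the share of all genes, and nothing is read from that count.

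**Figure D3:**
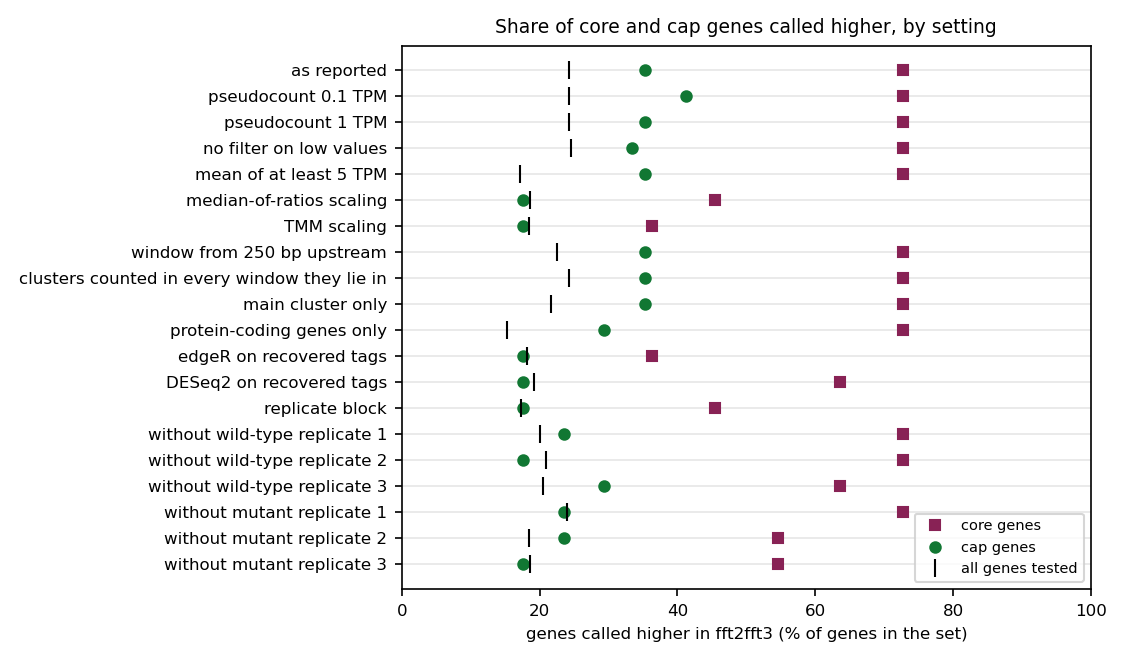
Percentage of the core genes, cap genes and all genes tested that were called higher in the mutant, for the reported fit and each of 19 other settings. The core lies between 36.4% and 72.7% and above all genes in every setting, whereas the cap lies between 17.6% and 41.2% and below all genes in 7 of the 20.

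The core to cap ratio of summed promoter tags was 0.970, 0.995 and 1.09 in wild-type cells and 1.29, 1.13 and 1.22 in the mutant, so the mutant libraries were all above the wild-type ones. It does not depend on library scaling. Earlier results of these data were known when the members were chosen, so no p is given for this sum. The order of libraries within a group differed between core and cap. Wild-type replicate 2 was the lowest of its group in 10 of 17 cap genes and in 4 of 11 core genes, and mutant replicate 2 the highest in 10 of 17 cap genes and in 3 of 11 core genes. The part of these libraries in the cap values was not tested beyond leaving each out.

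Most subunit promoters had 1 main cluster at the annotated start. In 25 of 28 genes (89.3%) the main cluster was listed 1 bp downstream of the annotated start, against 80.6% of the 3867 coding genes that reached 5 TPM in each library. The main cluster held a median of 99.9% of a subunit gene's tags and was 11 bp wide, against 99.4% and 21 bp for those coding genes. The subunit genes all had at least 15.8 TPM in every library, so the sets are not alike in level. The part of level in these differences was not tested. The annotated distance from start to start codon had a median of 28 bp in the subunit genes and of 86 bp in those coding genes, with rpn11 at 333 bp as the longest. In 6 of the 28 genes the window held 1 cluster only. The 3 exceptions to the common position were pre6 and rpn1302, at 3 bp, and rpn10, 25 bp upstream of the annotation. Windows of 40 bases are shown for pre3 and pre4 of the core and rpn2 and rpn1302 of the cap, read 5′ to 3′ along the gene. They were chosen, after their values were seen, from the genes that passed in all settings. The genes pre5, pup1 and rpt2 also did so and are not shown. Capitals mark the base before the annotated start and the start itself.
pre3: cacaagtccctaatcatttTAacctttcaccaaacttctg
pre4: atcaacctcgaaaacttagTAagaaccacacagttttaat
rpn2: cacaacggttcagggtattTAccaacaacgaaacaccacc
rpn1302: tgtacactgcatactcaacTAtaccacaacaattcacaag

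These are chrII:3117626-3117665 and chrII:769633-769672 on the plus strand and chrII:3322893-3322932 and chrIII:899200-899239 on the minus strand of ASM294v3. All 4 have a pyrimidine followed by a purine, the step of the usual initiator, at the annotated start. The same step lay 1 bp upstream of the listed position in 91.2% of 6035 clusters with a pooled score above 20, so the listed positions lie 1 bp past the purine of that step. The main cluster of rpn1302 was listed at 3 bp, which places its step at the letters ta that follow the capitals.

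The tag-weighted mean start was tested in all 28 genes. It could not move in the 6 genes whose window held 1 cluster only. Of the 3867 coding genes in this fit, 3433 had at least 2 clusters. The shares called are thus not from like sets, and a low count is not read as a trait of the subunit genes. Of the 28 genes 1 changed, where 12.7% of the 3867 coding genes did. That gene was pre6, whose mean start lay at 1.601, 1.41 and 2.13 bp in wild-type cells and at -0.02, -0.53 and -0.45 bp in the mutant, a shift of 2.05 bp upstream (SE 0.26, limma adjusted p = 0.017). Its size rested on the window: counted from 250 bp upstream, the shift was -0.52 bp (adjusted p = 0.0070). The shift came with weak upstream starts. A cluster 329 bp upstream, outside the shorter window, went from 0.80, 0.71 and 0.71 TPM to 3.53, 4.01 and 3.83 TPM, and one 120 bp upstream from 0.30, 0.32 and 0.20 TPM to 1.29, 1.38 and 1.11 TPM. The main cluster kept 99.6% of the tags in wild-type cells and 98.7% in the mutant, and every mutant library was below every wild-type library (limma on the logit share, adjusted p = 0.0025). The call on position ended without wild-type replicate 1, mutant replicate 2 or mutant replicate 3, and the call on share did not. For pre1 the mean start went from -7.07 ± 0.73 to -10.7 ± 2.36 bp, which did not pass (limma adjusted p = 0.19).

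Shares were tested in the 22 genes with at least 2 clusters, and 4 changed, where 28.6% of 3433 coding genes did. Beside the fall in pre6, the logit share was higher for pre3, pre5 and rpn2. In these 3 the tags outside the main cluster were so few that the 0.5 TPM added to each side sets the ratio. The plain share of rpn2 went from 100% in each wild-type library to a mean of 99.98% in the mutant, opposite in sign to its logit change. Those of pre3 (99.97% and 99.98%) and pre5 (99.99% and 99.98%) overlapped between groups. The call of pre6 was the only one without wild-type replicate 1, wild-type replicate 2 or mutant replicate 1, and 2 calls were left without mutant replicate 3.

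Tags on the strand opposite to subunit genes were higher in every mutant library, from very low levels. Their sum over the 30 genes was 3.14, 2.92 and 3.39 TPM in wild-type cells and 19.02, 19.3 and 18.3 TPM in the mutant. The 3 genes whose mean reached 1 TPM were all higher, where 77.9% of 2048 coding genes were, so this share does not set them apart. For rpn1302 the antisense values were 0.648, 0.631 and 0.455 TPM against 5.08, 5.04 and 4.83 TPM. For rpn8 they were 0.448, 0.552 and 0.658 TPM against 2.58, 3.02 and 3.17 TPM. In both genes the groups lay far apart. For pre5 they were 0.0498, 0.158 and 0.101 TPM against 2.67, 3.36 and 2.52 TPM. The log2 changes were 2.35, 1.70 and 2.47 (limma adjusted p = 2.53e-07, 3.79e-06 and 2.76e-07). The sense promoters of rpn1302 and pre5 also rose, whereas that of rpn8 did not pass. Of all 30 genes, 14 had every mutant library above every wild-type library on the antisense strand. That count was not made over all coding genes, so nothing is read from it. In 6 genes no antisense tag lay in a cluster in any library (pre9, pre10, rpn501, rpn502, rpn6 and rpn11). A count of 0 allows up to 0.237 TPM in the shallowest library.

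Sense starts inside the genes, downstream of the promoter window, were added as a readout after the files were seen. Of 9 genes whose mean reached 1 TPM, 8 were higher, where 72.8% of 2476 coding genes were. The largest log2 changes were those of rpn2 and rpn1302, 1.15 ± 0.15 and 1.14 ± 0.21 (limma adjusted p = 2.47e-06 and 1.05e-04). Inside rpn2 there were 4.13, 4.65 and 6.12 TPM in wild-type cells and 11.5, 11.3 and 11.7 TPM in the mutant. Inside rpn1302 there were 0.498, 0.552 and 0.860 TPM against 2.45, 2.03 and 1.56 TPM. In plain means rpn2 rose 2.31-fold and rpn1302 3.16-fold. The gene rpt6 had 5.63, 4.49 and 4.76 TPM against 5.55, 6.68 and 5.19 TPM, and was the one that did not pass (limma adjusted p = 0.24). Summed over the 30 genes these tags went from 26.3 ± 0.79 to 47.8 ± 2.73 TPM, which is small beside the promoter sums of the core and cap.

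**Figure D4:**
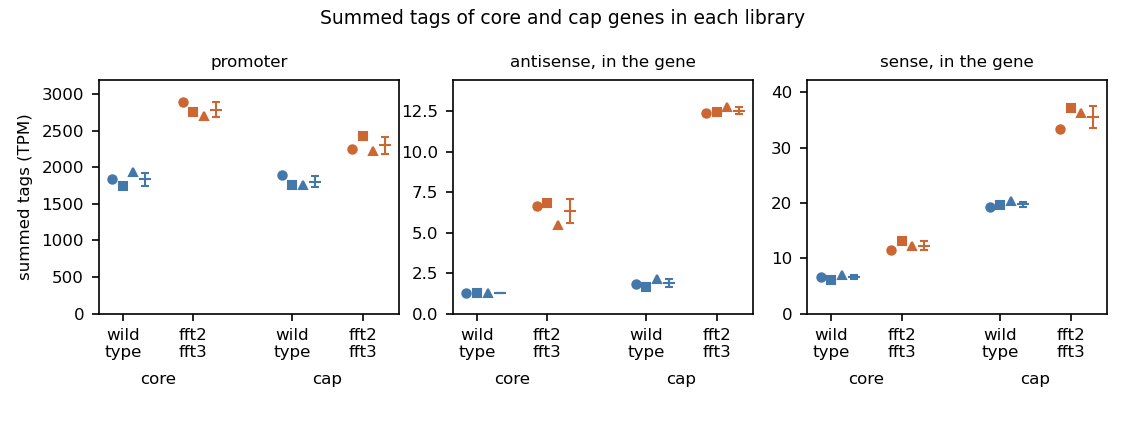
Summed tags (TPM, axis from 0) of core and cap genes in each library, at promoters, on the opposite strand inside the genes and on the sense strand inside the genes, with mean ± SD beside the points. In all 3 panels the mutant libraries lie above the wild-type ones, with antisense sums between 1.26 and 2.12 TPM in wild-type cells and between 5.49 and 12.8 TPM in the mutant.

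Promoter letters were searched from 250 bp before to 50 bp after the annotated start (either strand, 300 bases, RefSeq ASM294v3), in the 30 subunit genes and in 5112 coding genes with a full window. The letters GGTGGCAAA, the Rpn4 site of budding yeast proteasome genes, were in none of the 30 windows and in 0.0978% of all. The TATA box letters TATAAA were in 22 of 30 (73.3%) and in 48.1% of all, but only 1 of the 30, pre4, had them on the gene's strand from 45 to 20 bp upstream of the start, against 4.99% of all. The heat shock element core GAANNTTC was in 3 of 30 (11.1% of all), CCAAT in 13 (42.2% of all), the Atf1 core TGACGT in 1 (5.91% of all) and the HomolD box CAGTCACG in none (1.23% of all). Of all 8-letter words, AATATAAA, which overlaps the TATA box letters, was held by the most subunit windows in excess of its share, 10 of 30 against 9.35%.

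A further word, CAACTAC, was picked after the sequences were seen. It was in 8 of the 30 windows and in 5.38% of all, and in 6 of the 8 it lay on the gene's strand within 10 bp of the start. These 6 are shown from 20 bp before to 19 bp after the annotated start, with the word in capitals.
pup2: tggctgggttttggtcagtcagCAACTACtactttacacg
pre10: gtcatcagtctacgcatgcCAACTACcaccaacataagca
rpt1: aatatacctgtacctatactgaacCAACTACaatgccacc
rpt3: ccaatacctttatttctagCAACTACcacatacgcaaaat
rpn9: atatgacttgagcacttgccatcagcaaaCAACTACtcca
rpn11: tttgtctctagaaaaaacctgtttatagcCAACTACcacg

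The windows are chrI:3910385-3910424 (minus strand), chrIII:990672-990711 (plus), chrII:4343361-4343400 (minus), chrIII:2098847-2098886 (minus), chrI:2043788-2043827 (plus) and chrI:3010626-3010665 (plus). The word begins between 1 bp upstream and 9 bp downstream of the start. None of these 6 genes was called higher, while 14 of the 22 tested subunit genes without it there were. Over all coding genes tested the word at this place did not go with fewer calls: 19 of 93 genes with it (20.4%) and 773 of 4592 without it (16.8%) were higher. The word was chosen with the calls known, so no test is given.

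Other genes of the pathway were read from lists chosen with earlier results of these data known. Of 23 genes linked to the proteasome by annotation or name, 22 were tested, 10 were higher and 1 lower, where 24.3% and 9.11% of all genes were, with a median log2 change of 0.44. Core and cap subunits that bear other names were among them, and some did not pass: the beta subunit gene pam1 (limma adjusted p = 0.053), dss1, annotated as a proteasome receptor (0.96), and SPCC18.17C, annotated as a non-ATPase subunit (0.71). The alpha-ring gene scl1 went from 725 ± 43.9 to 1009 ± 16.1 TPM and the deubiquitinase gene ubp6 from 29.1 ± 2.69 to 45.6 ± 3.25 TPM (limma adjusted p = 0.0084 and 0.0068). The gene of Ecm29, which binds the assembled proteasome, went from 86.2 ± 14.7 to 137 ± 13.7 TPM (limma adjusted p = 0.011). The subunit genes pts1 (the beta subunit with chymotrypsin-like activity) and mts4 (the Rpn1 scaffold) were also higher, with limma adjusted p of 0.014 and 0.023, and these 5 subunits were named after their values were seen. Some listed genes do not do what the list's name says. Among the 10 higher was uba1, annotated as the ubiquitin-activating enzyme E1 (limma adjusted p = 0.012). It was left out of the ubiquitin list below and was named after its values were seen. The highest change in it, 2.51, was that of pac1, annotated as a double-strand-specific ribonuclease, and the lower one was nob1, annotated as a ribosome biogenesis gene and close to the threshold (limma adjusted p = 0.0499). With TMM scaling 4 genes of the list were higher, near the 18.5% of all genes, and 1 lower, and 7 in all passed without mutant replicate 2 or 3.

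Of 57 genes of the ubiquitin system 56 were tested, and 10 were higher, close to the 16.9% of coding genes, and 3 lower, with a median of 0.21. The deubiquitinase genes moved both ways. The gene ubp5 went from 43.1 ± 4.43 to 74.2 ± 3.77 TPM (limma adjusted p = 0.0022), while ubp4 went from 27.3 ± 3.36 to 19.05 ± 0.562 TPM and ubp11 from 6.53 ± 1.46 to 3.48 ± 1.009 TPM (limma adjusted p = 0.025 and 0.031). Among conjugating enzymes and ligases ubc16 went from 18.2 ± 1.38 to 31.1 ± 3.95 TPM, ubc11 from 391 ± 18.8 to 533 ± 9.61 TPM and pub3 from 198 ± 12.4 to 277 ± 10.6 TPM, with limma adjusted p from 0.0057 to 0.0098. The ubiquitin fusion gene ubi5 fell from 843 ± 26.3 to 649 ± 59.5 TPM (limma adjusted p = 0.031). With TMM scaling the list had 2 higher and 7 lower. Its calls numbered 8 without wild-type replicate 1 or 3 and 6 without mutant replicate 2 or 3.

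Heat and core stress genes moved alongside the proteasome genes. Of 10 such genes 8 were higher and none lower, where 24.3% of all genes were higher, led by the small heat shock protein gene hsp16, which was 7.14-fold higher in mean TPM. With TMM or median-of-ratios scaling 5 were higher and none lower, where 18.5% and 18.6% of all genes were higher. Without wild-type replicate 1 or mutant replicate 3, 5 were higher as well. The summed level of the list ran from 8734 to 9442 TPM in wild-type cells and from 8907 to 13899 TPM in the mutant, and these ranges overlap, with most of the sum in hsp90 and ssa2, which did not pass. No gene of that list was at 0 in all libraries. Its part in the proteasome values was not tested.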

How the data were processed

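CAGE tags of 6 libraries, 3 per genotype, were analysed. The submitters' processing notes name bedtools 2.15.0, CASAVA 1.6 and Bowtie 0.12.7 and the build ASM294v2, but not what each did. Values were deposited as RPM, scaled by the authors to each library's total and written as TPM, with T for tags. The authors' cluster table also holds a pooled signal per cluster, used only to check positions. Clusters were defined over all libraries together, so a shift inside a cluster cannot be seen.

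Genes were assigned with the RefSeq annotation of ASM294v3. The pyrimidine-purine step stood 1 bp upstream of the listed position in 84.9% to 100% of clusters in each stretch of 500 kb, so the builds were used together. A cluster in several promoter windows went to the nearest start. Genes whose mean reached 1 TPM entered a two-sided limma 3.58.1 fit of log2(TPM + 0.5), with trended empirical Bayes moderation and a threshold of 0.05 after Benjamini-Hochberg adjustment, so that changes of low genes are understated. Start position and share (logit, 0.5 TPM added to each side) were fitted without trend. Adjusted p-values come from these fits over all genes. Scripts were tested on simulated data.

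Between 99.7% and 99.8% of values were whole multiples of 1 tag (tolerance 0.02), which gave tags per library. On these, edgeR 4.0.16 called 1022 genes higher and 834 lower and DESeq2 1.42.0 1079 and 947. A floor of 3 tags was 0.129 to 0.237 TPM per library, for counting error only.

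The members and lists were chosen with earlier results of these data known. Named with values for each library were the called members, those with the 2 highest and 2 lowest means in core and cap, and the called members of the other readouts. Outside the members at most 4 genes per list and direction were named, by adjusted p, with exceptions stated. Replicate numbers were not treated as pairs.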

Additional observations from a re-analysis of the deposited data

How the results depend on the processing

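The sign of each called core and cap gene was kept in every setting, and no core or cap gene was called lower in any. Against 8 core genes as reported, TMM scaling left 4, edgeR 4 and median-of-ratios scaling 5. Against 6 cap genes, TMM scaling, median-of-ratios scaling, edgeR and DESeq2 each left 3 of 17, or 17.6%. In these settings 18.5%, 18.6%, 18.2% and 19.2% of all genes were higher, so nothing is read from the cap counts. Against 11 proteasome-linked genes, TMM scaling left 5, edgeR 4 and median-of-ratios scaling 6. Only 1 share call was left against 4 with the window from 250 bp upstream, and 6 antisense calls were made against 3 when a mean of 0.5 TPM was enough. The cause was not tested, except that the last 2 changed which clusters or genes entered.

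Leaving out each library in turn gave 6 to 8 core genes, 3 to 5 cap genes, 0 to 1 position calls and 1 to 3 share calls. It gave 7 to 10 proteasome-linked genes and 6 to 12 ubiquitin genes. The share higher was 54.5% to 72.7% in the core and 17.6% to 29.4% in the cap, and 18.5% to 24.0% over all genes. The 3 antisense calls were the number in each of these fits, and 7 or 8 calls were made inside genes.

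Genes that had not passed changed sign without passing. Under median-of-ratios scaling, TMM, edgeR and DESeq2 in turn, the log2 change was -0.13, -0.13, -0.14 and -0.13 for pre10, -0.044, -0.050, -0.048 and -0.042 for rpt6 and -0.050, -0.056, -0.035 and -0.031 for rpn1301. It was -0.12, -0.13, -0.13 and -0.12 for rpn3 and -0.045, -0.051, -0.048 and -0.043 for rpn9. Leaving out 1 library gave -0.053 to 0.10 for pre10, -0.15 to 0.26 for rpn1301, -0.11 to 0.20 for rpn3, -0.13 to 0.15 for rpn8 and -0.074 to 0.21 for rpn9.

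Same-numbered libraries did not deviate together (correlations of -0.21, -0.21 and -0.34 over genes), and the labels do not say that a number marks a shared culture. With the replicate number as a block the pairing left 5 core genes and 3 cap genes, where 17.2% of all genes were higher. The cap share, 17.6%, is near that and is not read as a result. There were also 0 position calls, 1 share call, 6 proteasome-linked genes and 4 of the 56 ubiquitin genes tested. No subunit gene was lower with the block. These fits have fewer degrees of freedom.

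Depth set little here, since each tested subunit gene had at least 15.8 TPM in every library. It limited antisense tags, where 3 of 30 genes reached the mean needed for testing.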
